A study of Mus musculus with 30 samples.

Results

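Nodal and activin signalling was followed in mouse embryonic stem cells (ESCs) through 8 genes: Nodal, Gdf3, Tdgf1, Foxh1, Lefty1, Lefty2, Smad7 and Skil. Every probe whose gene symbol matched one of them was taken, which gave 10 of the 25697 probes on the array, for 8 of its 18097 gene symbols. The study asked which phosphoregulators, kinases and phosphatases among them, ESCs need for self-renewal. Its rescue clones carry an shRNA against 1 endogenous mRNA, and with doxycycline (Dox) they express a version of the mRNA that escapes the shRNA. Clones for Bub1b, Chek1, Ppm1g and Ppp2r1b, written Bub1b_R, Chek1_R, Ppm1g_R and Ppp2r1b_R, stood beside a control clone, Control_R. Each was sampled with Dox (1 μg/ml) and 5 days after its withdrawal, with 3 arrays for each of the 10 conditions and 30 arrays in all.

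The clones share the rtTA-expressing line Ainv15, grown with serum and LIF, and the mouse strain 129P2/OlaHsd is given in the labels of Control_R only. The labels place the lines on fibroblast feeders, while the methods state that the cultures for the arrays had none. The labels do not say whether the 3 arrays of a condition came from separate cultures, so the p-values measure the spread between these arrays, which may be technical. The methods describe 3 clones for each gene, and neither they nor the labels say whether the 3 arrays of a condition stand for 1 of them or for several. It is thus unknown whether the spread between arrays includes differences between clones. How precise each value is depends on the small number of arrays.

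Nodal and activins are ligands of the TGF-β family. They bind type I and type II activin receptors, Nodal together with a co-receptor such as Tdgf1, and the receptors phosphorylate Smad2 and Smad3, which enter the nucleus with Smad4 and act with DNA-binding partners such as Foxh1. In the early embryo the pathway drives primitive streak and endoderm formation, and Lefty1 and Lefty2, themselves targets of the pathway, are secreted inhibitors that close a feedback loop on Nodal.

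The shRNA target sites that define the phosphoregulator clones are given 5′ to 3′, 21 bases each. In these clones Dox adds a copy of the mRNA that lacks or alters the site. The endogenous mRNA that holds the site is targeted with and without Dox.
Bub1b_R: gcacacttagacacatcagca
Chek1_R: cccatgtagtagtatcacttt
Ppm1g_R: gccttgtactgtgccaaatat
Ppp2r1b_R: gctccgtctcaacagtattaa

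The check of the targeted mRNAs was uneven. Ppm1g fell by 1.25 on the log2 scale when Dox was removed from Ppm1g_R (adjusted p = 4.50e-09), whereas Bub1b (−0.14, adjusted p = 0.217) and Ppp2r1b (0.20, adjusted p = 0.365) did not pass the test in their clones. The rescue copies of Bub1b and Chek1 lack the part of the mRNA that the shRNA targets, and where the probes lie was not used here. Chek1 went against its label: it was detected on 0 of 3 arrays with Dox and on 3 of 3 without, and was called higher without Dox (adjusted p = 0.00115). Without Dox, against Control_R, the targeted mRNA was lower in Bub1b_R (−0.67, adjusted p = 1.05e-07), Ppm1g_R (−1.74, adjusted p = 5.66e-13) and the arrays labelled Chek1_R (−1.07, adjusted p = 3.06e-06), all called, and not past the test in Ppp2r1b_R (−0.25, adjusted p = 0.158). The last 3 differences cross the array sets. Directions on Dox withdrawal in Chek1_R are therefore those of the arrays labelled Chek1_R. Between 11733 and 13685 probes were detected per array. The lowest detected intensity ranged from 12.9 to 20.9 among the 12 arrays of Control_R and Bub1b_R and from 27.8 to 58.1 among the 18 of the other 3 clones, so a difference between those 3 clones and Control_R cannot be told apart from a difference between the array sets. These sets are read from the intensities alone, since no label names them. The Control_R arrays belong to a series deposited earlier than that of the other clones. A difference between Bub1b_R and Control_R therefore cannot be told apart from one between these series. Of 8 ESC markers on the array, 8 were detected on all arrays of each clone.

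Values are log2 normalized intensities, with an offset of 16 added before the logarithm, and a change is the mean without Dox minus the mean with Dox. A probe was called at an adjusted p under 0.05 (limma, Benjamini-Hochberg over the 15151 probes detected on at least 3 arrays) and a difference of at least 1.5-fold. The methods' per-probe test, used below as an alternative, is an equal-variance Student's t-test on the arrays compared, with the same adjustment. The methods name Student's t-test for the experiments in general, and for the arrays they refer to earlier work. Levels of different probes are not comparable. Of the 10 probes, 8 passed the detection filter, for 7 of the genes. The probe of Smad7, an inhibitory SMAD induced by the pathway, was detected on 0 of 30 arrays, with a lowest detection p of 0.407. Of the 2 probes of Skil, a repressor that binds SMADs, ILMN_2775130 was likewise detected on 0 of 30 arrays and ILMN_3126697 on 30.

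Of the 8 member probes tested, that of Lefty2 had the largest change on Dox withdrawal in Bub1b_R and on the arrays labelled Chek1_R, and it was higher without Dox in all 5 clones, Control_R included. In each of the other 3 clones at least 1 member probe changed more in size than Lefty2 (0.38 in Ppm1g_R, 0.24 in Ppp2r1b_R and 0.34 in Control_R). These were Tdgf1 in Ppm1g_R (−0.48), Lefty1 in Ppp2r1b_R (−0.27) and, not past the test, Tdgf1 in Control_R (0.35) and a Foxh1 probe in Ppm1g_R (−0.45) and in Ppp2r1b_R (0.35). Lefty1 moved the other way on the arrays labelled Chek1_R. Gdf3 was lower without Dox on the same arrays, and Nodal itself passed the test in none of the clones. At the call limit 2 member probes were called on the arrays labelled Chek1_R, beside 9.27% of all tested probes, and 1 in Bub1b_R, beside 5.6%. The clones Ppm1g_R, Ppp2r1b_R and Control_R had 0, beside 4.37%, 4.82% and 1.1%. With no fold limit, and in the order Bub1b_R, Chek1_R, Ppm1g_R, Ppp2r1b_R and Control_R, 2, 4, 3, 3 and 1 member probes had an adjusted p under 0.05, beside 24.4%, 30.9%, 23.4%, 25.3% and 7.55% of all. In the clones with 0 calls, 5, 3 and 2 of the 8 member probes had an unadjusted p under 0.05 in limma. The median change of the 8 probes was −0.05, −0.13, −0.10, −0.04 and 0.04 in the same order, and that of all tested probes −0.01, −0.02, −0.01, −0.01 and 0.00.

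**Figure D1:**
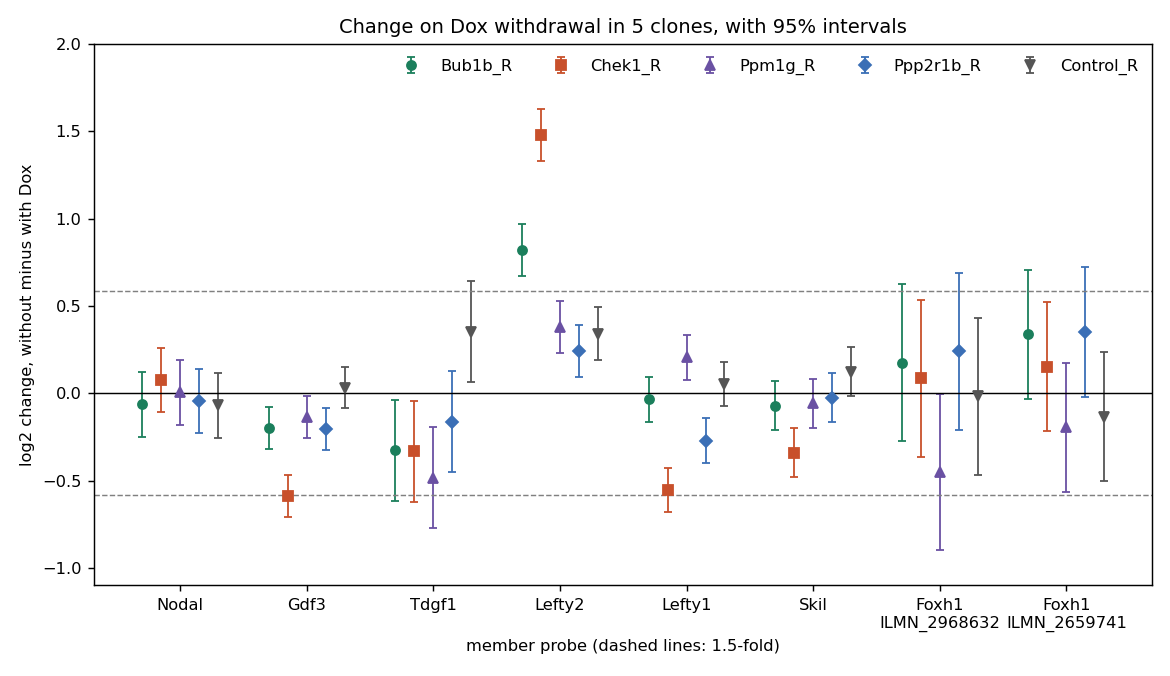
Log2 change on Dox withdrawal (without minus with Dox) of the 8 member probes past the detection filter, 1 symbol for each of 5 clones, with 95% intervals from the limma fit; dashed lines mark 1.5-fold. Lefty2 lies above 0 in all 5 clones, from 0.24 in Ppp2r1b_R to 1.48 on the arrays labelled Chek1_R, while the intervals of Nodal cross 0 in all 5.

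Lefty2 encodes a secreted antagonist of Nodal. On the arrays labelled Chek1_R it read 9.27, 9.52 and 9.39 with Dox and 10.79, 10.96 and 10.87 without. In Bub1b_R the values were 10.21, 10.08 and 10.11 with Dox and 10.97, 10.92 and 10.97 without. The ranges were far apart in both clones, and the mean differences were 1.48 ± 0.07 (SE) on the arrays labelled Chek1_R (2.79-fold, adjusted p = 5.03e-14) and 0.82 ± 0.07 in the Bub1b_R clone (1.77-fold, adjusted p = 8.15e-09).

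The remaining clones moved less. Ppm1g_R gave 11.21, 11.31 and 11.21 with Dox against 11.62, 11.62 and 11.64 without, a change of 0.38 (adjusted p = 4.10e-04). Control_R gave 9.57, 9.61 and 9.60 against 9.92, 9.97 and 9.91, a change of 0.34 (adjusted p = 0.00439), so that the control clone also read higher for Lefty2 after withdrawal. Ppp2r1b_R gave 10.62, 10.58 and 10.73 against 10.69, 11.02 and 10.94, a change of 0.24 (adjusted p = 0.0155), and only there did the ranges overlap. An adjusted p under 0.05 with a higher value in all 5 clones, at any fold, was met by 0.719% of tested probes. Scaling to the median in place of quantiles left Bub1b_R and the arrays labelled Chek1_R past the test (0.95 and 1.60) and not the other 3 clones (0.23 to 0.38, adjusted p 0.0635 to 0.165), and the change in Ppp2r1b_R also no longer passed when 1 array was left out: replicate 2 of the Dox-treated arrays (adjusted p = 0.0679), or replicate 2 (0.103) or 3 (0.0643) of the withdrawn ones. In a limma fit of the compared arrays alone, neither Control_R (adjusted p = 0.0642) nor Ppp2r1b_R (adjusted p = 0.215) passed. By the methods' per-probe test Ppp2r1b_R did not pass either (adjusted p = 0.278).

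**Figure D2:**
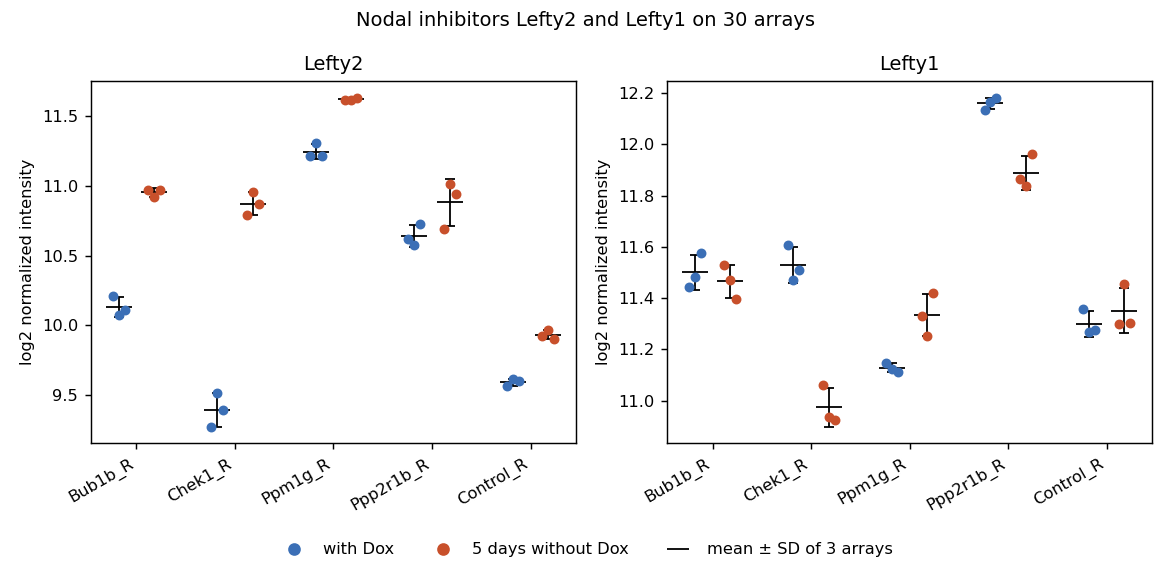
Log2 normalized intensity of Lefty2 (left) and Lefty1 (right) on each of 30 arrays, by clone, with Dox (blue) and after 5 days without (orange); bars are the mean ± SD of 3 arrays. Lefty2 is higher without Dox in each clone, and Lefty1 falls from 11.53 to 10.97 on the arrays labelled Chek1_R, its lowest mean.

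The size of the Lefty2 change differed between clones (F-test over the 5 changes, F = 50.3, adjusted p = 6.51e-09), a test that 5 of the 8 member probes passed beside 30.6% of all tested probes. Measured relative to the change in Control_R, it was larger by 1.14 ± 0.10 (SE, adjusted p = 1.32e-08) on the arrays labelled Chek1_R and by 0.48 ± 0.10 in Bub1b_R (adjusted p = 0.00260, 1.40-fold). For Ppm1g_R (0.04, 95% interval −0.17 to 0.25, and −0.11 under median scaling) and Ppp2r1b_R (−0.10, −0.31 to 0.11) no difference from Control_R passed the test. These 4 differences share the Control_R arrays.

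Lefty1 is the paralogue of Lefty2 and acts on the same ligand. In GRCm38.p6 the genes are neighbours on chromosome 1, Lefty2 at chr1:180893108-180899107 and Lefty1 at chr1:180935022-180938401, with 35914 bases and 2 annotated genes between them, 1 of which is protein coding. On the arrays labelled Chek1_R Lefty1 read 11.61, 11.47 and 11.51 with Dox and 11.06, 10.94 and 10.92 without. There the groups did not overlap, and the change of −0.56 ± 0.06 (SE, adjusted p = 1.37e-07) was 1.47-fold, just under the call limit. It passed the limit when replicate 1 of the withdrawn arrays was left out (−0.60).

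In Ppp2r1b_R Lefty1 read 12.14, 12.16 and 12.18 with Dox and 11.86, 11.84 and 11.96 without, a change of −0.27 (adjusted p = 0.00214). Ppm1g_R moved the opposite way, from 11.15, 11.12 and 11.11 to 11.33, 11.25 and 11.42, a change of 0.21 (adjusted p = 0.0170). Neither reached 1.5-fold, and in both clones the ranges were separate. Neither passed under median scaling (−0.23 with adjusted p = 0.0699 in Ppp2r1b_R, 0.09 with adjusted p = 0.527 in Ppm1g_R), in a fit of the compared arrays alone (adjusted p = 0.0857 and 0.108) or by the methods' per-probe test (adjusted p = 0.0564 and 0.0884), and Ppm1g_R also lost the test without its Dox-treated replicate 3 (adjusted p = 0.0517) or withdrawn replicate 3 (adjusted p = 0.101). In Bub1b_R (−0.04, 95% interval −0.16 to 0.09, and 0.05 under median scaling) and Control_R (0.05, −0.08 to 0.18) the test was not passed and the ranges overlapped. The changes differed between clones (F = 23.4, adjusted p = 3.28e-06). Relative to Control_R the fall was 0.61 on the arrays labelled Chek1_R, called at an adjusted p of 1.66e-05 and 1.52-fold, a call lost under median scaling (−0.51) and, at −0.56 to −0.58, when any of 3 arrays was left out: replicate 1 of the Dox-treated or replicate 3 of the withdrawn arrays, or replicate 2 of withdrawn Control_R.

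At an adjusted p under 0.05, Lefty1 and Lefty2 moved in opposite directions on the arrays labelled Chek1_R and in Ppp2r1b_R, and in the same direction in Ppm1g_R, but under median scaling neither gene passed in Ppp2r1b_R or Ppm1g_R, so that the opposite movement passed under both scalings on the arrays labelled Chek1_R alone. After the mean of each clone was taken off, the log2 values of the genes correlated at r = −0.665 over the 30 arrays, which share their Dox state and so are not independent points.

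Gdf3, a ligand close to Nodal in sequence and signalling through the same receptors, had an adjusted p under 0.05 for a lower value without Dox in 3 clones. On the arrays labelled Chek1_R it read 11.18, 11.08 and 11.11 with Dox and 10.51, 10.56 and 10.55 without. The change of −0.59 ± 0.06 (SE, adjusted p = 1.87e-08) was called just above 1.5-fold, and the withdrawn arrays had the lowest mean of the 10 conditions. The call sat at the limit and was lost, with the sign kept, under an offset of 50 (−0.58), quantiles within each array set (−0.57), median scaling (−0.45) or when replicate 1 of either condition was left out (−0.56 the smallest). Relative to Control_R the fall was 0.62 (adjusted p = 5.07e-06), called, and −0.51 and not called under median scaling and −0.58 without replicate 1 of Dox-treated Control_R.

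Bub1b_R read 11.17, 11.20 and 11.42 with Dox and 11.10, 11.03 and 11.06 without (−0.20, adjusted p = 0.0126). Ppp2r1b_R read 11.05, 11.06 and 11.06 against 10.91, 10.80 and 10.83 (−0.21, adjusted p = 0.0102). In neither did the ranges overlap, but the difference was under 1.5-fold. Neither passed under median scaling (−0.11, adjusted p = 0.470, and −0.20, adjusted p = 0.163), in a fit of the compared arrays alone (adjusted p = 0.137 and 0.151) or by the methods' per-probe test (adjusted p = 0.196 and 0.0657), and Bub1b_R also lost the test without its Dox-treated replicate 3 (−0.12) or withdrawn replicate 2 (adjusted p = 0.0525). In Ppm1g_R, where the ranges were also separate, the change was −0.14 (adjusted p = 0.0887), and in Control_R 0.03 (adjusted p = 0.807). The changes differed between the 5 clones (F = 15.5, adjusted p = 5.98e-05), but not past the test with the arrays labelled Chek1_R left out (F = 3.23, adjusted p = 0.135) or under median scaling (F = 3.92, adjusted p = 0.0557). After the mean of each clone was taken off, Gdf3 ran against Lefty2 (r = −0.899) and with Lefty1 (r = 0.774). These r pool the 30 arrays, which share their Dox state and so are not independent points. The signs of the changes differed from this in Control_R for Lefty2 (Gdf3 0.03, Lefty2 0.34). They also differed in Ppm1g_R for Lefty1 (Gdf3 −0.14, Lefty1 0.21), and in the other clones they followed it.

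Tdgf1 (Cripto) is the membrane-anchored co-receptor that Nodal and Gdf3 need. In Ppm1g_R it read 11.56, 11.36 and 11.55 with Dox and 11.22, 10.91 and 10.90 without, a change of −0.48 ± 0.14 (SE, adjusted p = 0.0136, 1.40-fold), which reached −0.59 and the call without replicate 1 of the withdrawn arrays. It no longer passed without Dox-treated replicate 1 (adjusted p = 0.0531) or withdrawn replicates 2 (0.0611) or 3 (0.0634), or by the methods' per-probe test (0.0976). In Control_R it went the other way, from 9.72, 9.80 and 9.90 to 10.19, 10.08 and 10.20 (0.35, adjusted p = 0.134). Both pairs of groups were separate, although only Ppm1g_R passed the test.

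In Bub1b_R Tdgf1 read 9.88, 9.57 and 9.46 with Dox and 9.45, 9.21 and 9.26 without (−0.33, adjusted p = 0.0960). The arrays labelled Chek1_R read 11.04, 10.60 and 11.13 against 10.5, 10.73 and 10.53 (−0.33, adjusted p = 0.0750), and Ppp2r1b_R 10.92, 11.26 and 11.01 against 10.82, 10.68 and 11.20 (−0.16, adjusted p = 0.430). The ranges overlapped in the last 2 clones. The change relative to Control_R was called lower with a value of −0.69 on the arrays labelled Chek1_R (adjusted p = 0.0164), of −0.68 in Bub1b_R (adjusted p = 0.0251) and in Ppm1g_R (−0.84, adjusted p = 0.00612). In Ppp2r1b_R it was −0.52 (adjusted p = 0.109), and −0.67 and called (adjusted p = 0.0360) without replicate 3 of the withdrawn arrays. Under median scaling neither the arrays labelled Chek1_R (−0.59, adjusted p = 0.125) nor Bub1b_R (−0.65, adjusted p = 0.118) was called. In Bub1b_R the call was lost without any of 5 arrays (Dox-treated replicate 1 and withdrawn replicates 2 and 3 of Bub1b_R, Dox-treated replicate 1 and withdrawn replicate 3 of Control_R), with adjusted p up to 0.0812. For the arrays labelled Chek1_R it was lost without replicate 3 of the Dox-treated arrays (adjusted p = 0.0545). The changes differed between clones by the F-test (F = 5.35, adjusted p = 0.0157), and not under median scaling (F = 3.86, adjusted p = 0.0582).

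Of the member probes, 1 (Tdgf1) was called relative to Control_R in Bub1b_R, where 5.15% of all tested probes were. On the arrays labelled Chek1_R 4 were called, Lefty2 higher and Lefty1, Gdf3 and Tdgf1 lower, beside 8.99% of all, and under median scaling 1 was called. In Ppm1g_R 1 (Tdgf1) was called beside 5.27%, and in Ppp2r1b_R 0 beside 3.28%, with 3 at an unadjusted p under 0.05.

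Nodal, the ligand itself, passed the test on Dox withdrawal in no clone. The changes lay between −0.07 and 0.08, those of Bub1b_R and Ppm1g_R turning sign under median scaling (0.01 and −0.07), with 95% intervals that reached from −0.26 to 0.26 at most, and the F-test between clones gave F = 0.460 (adjusted p = 0.829). A change of 1.5-fold lay outside all 5 intervals. Nodal differed between clones in level instead: the Control_R arrays read 8.93, 8.74 and 8.71 with Dox and 8.69, 8.63 and 8.85 without, and the other clones had means from 9.01 to 9.28. In all 8 comparisons with Control_R, with and without Dox, Nodal was higher by 0.28 to 0.51 at an adjusted p under 0.05, on 9 of 9 array pairs each, while 5.41% of tested probes were higher in all 8. No difference reached 1.5-fold, although under median scaling those of Ppm1g_R with Dox (0.59) and the arrays labelled Chek1_R without (0.62) did. The Bub1b_R differences (0.28 with Dox, adjusted p = 0.0159, and 0.28 without, adjusted p = 0.0101) stay within 1 array set as read from intensity, though not within 1 deposited series, and the other 6 cross sets. Both lost the test when 1 array was left out: with Dox, Bub1b_R replicate 2 or 3 or Control_R replicate 2 or 3 (adjusted p 0.0508 to 0.0737), and without Dox, replicate 2 of either clone (0.0577 and 0.0549). The arrays labelled Chek1_R with Dox lost it without replicate 3 (0.0555), and the methods' per-probe test did not pass these 3 comparisons (0.0734 to 0.0802).

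Skil fell by 0.34 ± 0.07 (SE) on the arrays labelled Chek1_R when Dox was removed (1.27-fold, adjusted p = 3.54e-04, and 0.0574 under median scaling), from 11.45, 11.35 and 11.49 to 11.18, 10.99 and 11.10, with no overlap. In Bub1b_R (−0.07, and 0.03 under median scaling), Ppm1g_R (−0.06), Ppp2r1b_R (−0.03) and Control_R (0.12) the test was not passed. Relative to Control_R the fall on the arrays labelled Chek1_R was 0.46 (adjusted p = 0.00112, under 1.5-fold, and 0.0565 under median scaling). The changes differed between clones (F = 6.11, adjusted p = 0.00916), but not past the test without the arrays labelled Chek1_R (F = 1.73, adjusted p = 0.350) or under median scaling (F = 2.74, adjusted p = 0.136).

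Foxh1, the DNA-binding partner of Smad2 in target activation, was dim. Its 2 probes were each detected on 28 of 30 arrays, with the lowest deposited intensities at 40.2 and 38. In Ppp2r1b_R with Dox they were detected on 2 and 1 of 3 arrays. Neither passed the test on Dox withdrawal in any clone. The nearest to the test was ILMN_2968632 in Ppm1g_R (−0.45, adjusted p = 0.143), where ILMN_2659741 gave −0.20 (adjusted p = 0.486), and the F-tests gave adjusted p of 0.330 and 0.222. Without replicate 1 of withdrawn Ppm1g_R the first probe was called there (−0.68, adjusted p = 0.0287) and the F-test of the second passed (adjusted p = 0.0401).

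**Figure D3:**
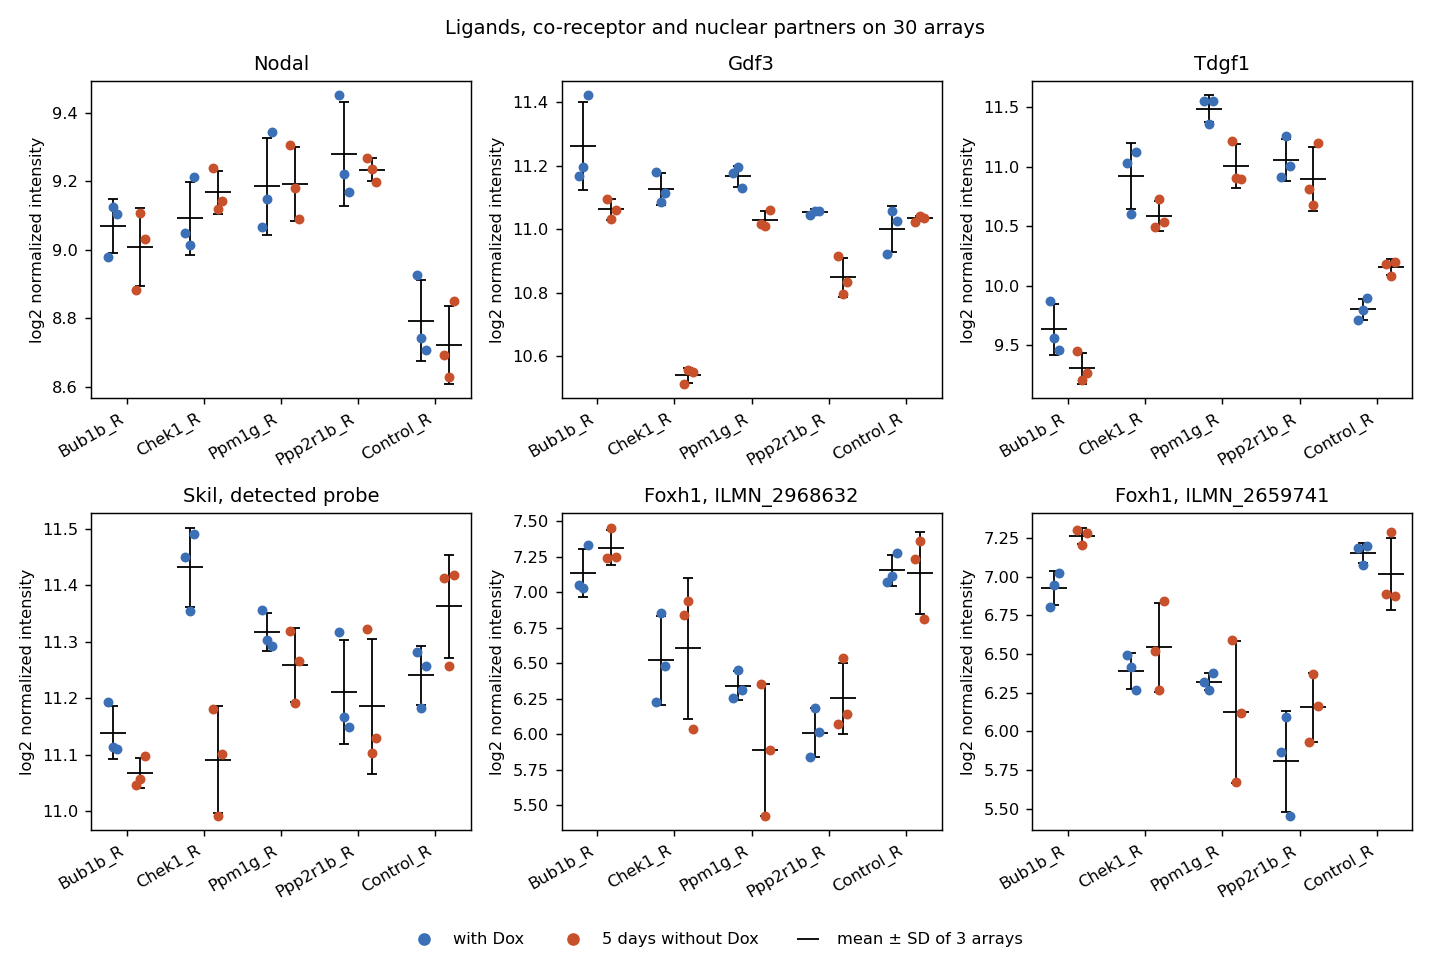
Log2 normalized intensity of Nodal, Gdf3, Tdgf1, the detected Skil probe and both Foxh1 probes on each of 30 arrays, by clone, with Dox (blue) and after 5 days without (orange); bars are the mean ± SD of 3 arrays, and each panel has its own scale, since levels of different probes are not comparable. Gdf3 falls to 10.54 on the arrays labelled Chek1_R, Tdgf1 is lowest in Bub1b_R without Dox (9.31), and the means of both Foxh1 probes are higher in Bub1b_R and Control_R than in the other 3 clones.

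Set against Control_R without Dox, the comparison used in the study, Lefty2 was higher in all 4 clones. The differences were 0.94 on the arrays labelled Chek1_R, 1.02 in Bub1b_R, 1.69 in Ppm1g_R and 0.95 in Ppp2r1b_R (adjusted p from 1.46e-15 to 8.07e-11), each called, and 4.14% of tested probes were called higher in all 4. With Dox Lefty2 already stood above Control_R by 1.65 in Ppm1g_R and 1.05 in Ppp2r1b_R, both called, and by 0.54 in Bub1b_R (adjusted p = 1.63e-06, under 1.5-fold, and 0.73 and called under median scaling), and below it by 0.20 on the arrays labelled Chek1_R (adjusted p = 0.0269). The last was not past the test under median scaling (−0.14, adjusted p = 0.332) or without Dox-treated replicate 1 or 3 of these arrays or replicate 2 or 3 of Control_R (adjusted p up to 0.159). The 10 condition means ran from 9.39 for the arrays labelled Chek1_R with Dox to 11.62 for Ppm1g_R without. Of the neighbours in this order, Bub1b_R, Ppp2r1b_R and the arrays labelled Chek1_R without Dox, with means from 10.96 to 10.87, overlapped, and the ranges of all other neighbours were separate.

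Tdgf1 differed most between clones with Dox present. It was higher than in Control_R by 1.69 in Ppm1g_R (3.22-fold, adjusted p = 3.68e-10), by 1.26 in Ppp2r1b_R (adjusted p = 5.28e-08) and by 1.12 on the arrays labelled Chek1_R (adjusted p = 6.37e-07). All of these cross the array sets. Without Dox the differences were 0.85, 0.74 and 0.43, of which the last was under 1.5-fold. The second, that of Ppp2r1b_R, was 0.47 and not called under median scaling. Within 1 array set by intensity, but across the deposited series, Bub1b_R was lower than Control_R without Dox by 0.85 (adjusted p = 1.66e-05, called), and by 0.17 with Dox (adjusted p = 0.367).

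Lefty1 was called higher in Ppp2r1b_R than in Control_R with Dox (0.86, adjusted p = 2.96e-11), but not under median scaling (0.46). Without Dox it stood at 0.54 (adjusted p = 5.45e-08, 1.45-fold), at 0.59 and called when replicate 2 of withdrawn Control_R was left out, and at 0.17 (adjusted p = 0.0936) under median scaling. Gdf3 was lower than in Control_R on the arrays labelled Chek1_R without Dox (−0.49, adjusted p = 9.35e-08, 1.41-fold). Both Foxh1 probes were called lower than Control_R in Ppm1g_R and Ppp2r1b_R with and without Dox, by 0.81 to 1.35, and on the arrays labelled Chek1_R with Dox, by 0.63 and 0.76. On the latter arrays an offset of 50 ended both calls (−0.48 and −0.58), and that of ILMN_2968632 was also lost under median scaling (−0.55), under the methods' per-probe test (adjusted p = 0.0714) and without replicate 1 of those arrays or replicate 3 of Dox-treated Control_R. Without Dox they gave −0.53 and −0.47 there (adjusted p = 0.0380 and 0.0258), under 1.5-fold. Single arrays decided both. The first was called without replicate 1 or 2 of the withdrawn arrays or replicate 3 of withdrawn Control_R, and lost the test without replicate 3 of the withdrawn arrays (−0.25, adjusted p = 0.325) or replicate 1 or 2 of withdrawn Control_R. The second was called without replicate 3 of the withdrawn arrays, and lost the test without their replicate 1 (adjusted p = 0.0592) or 2 (−0.34, adjusted p = 0.149) or replicate 2 of withdrawn Control_R (adjusted p = 0.145). In Bub1b_R, the clone in the same array set as Control_R by intensity, neither Foxh1 probe passed the test (−0.23 to 0.25). The called Foxh1 differences all cross the array sets. With Dox, the deposited intensities of ILMN_2968632 were 73, 96.4 and 111.4 in Ppm1g_R and 68.5, 94.6 and 84.9 in Control_R. They were 40.2, 53.6 and 70.2 in Ppp2r1b_R and 66, 119.4 and 78.8 on the arrays labelled Chek1_R. In Ppm1g_R the lower value of this probe thus appeared only after normalization. Without Dox 2 member probes were called in Bub1b_R, beside 22.6% of all tested probes, 1 on the arrays labelled Chek1_R, beside 28.8%, and 4 in each of Ppm1g_R and Ppp2r1b_R, beside 33.5% and 33.7%. With Dox 0, 3, 4 and 5 were called in the same order, beside 12.7%, 17.6%, 29.1% and 28.3%, and in Bub1b_R 4 of the 8 had an unadjusted p under 0.05 in limma.

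Other genes of the pathway were read from a list of 44 genes, of which 36 were on the array and 28 passed the filter. On Dox withdrawal 10 were called higher and 1 lower in Bub1b_R, 9 and 0 on the arrays labelled Chek1_R, 8 and 1 in Ppm1g_R, 5 and 0 in Ppp2r1b_R and 2 and 0 in Control_R. That is 39.3%, 32.1%, 32.1%, 17.9% and 7.1% of the 28, beside the 5.6%, 9.27%, 4.37%, 4.82% and 1.1% of all tested probes given for these comparisons. The list was chosen with earlier results of these data known, and it holds Mixl1, which the paper reports as rising after Dox removal. It also counts 1 probe per gene, while the other shares count every probe. Lhx1 was detected on no array with Dox, and Mixl1 and Eomes on 0 or 1 of 3 arrays of each condition with Dox. The detection filter thus admitted these genes through the withdrawn arrays on which they were high, which favours their calls. The shares are therefore a description only. The median change of the 28 genes was 0.32, 0.16, 0.17, 0.24 and 0.07. In all, 14 genes were called in at least 1 clone.

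Among the ligands, Tgfb1 was called higher in the 4 phosphoregulator clones, by 1.49 on the arrays labelled Chek1_R, 1.06 in Bub1b_R, 0.64 in Ppm1g_R and 0.97 in Ppp2r1b_R, and gave −0.06 in Control_R. Tgfb2 was also called higher in these 4 clones (1.19, 0.76, 0.95 and 0.61), with −0.04 in Control_R. Both encode TGF-β ligands, which signal through Smad2 and Smad3 by receptors other than those of Nodal. Inhba, whose product forms activin A, was called higher in Bub1b_R (0.65) and Control_R (0.70), where it was detected with Dox on 2 and 1 of 3 arrays. Tgfb3 was called in Ppp2r1b_R alone (0.66), where it was detected on 1 of 3 arrays with Dox.

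Of the 5 receptors and co-receptors tested, both called ones bind TGF-β: Tgfbr2 on the arrays labelled Chek1_R (0.95) and in Ppm1g_R (0.67), and Tgfbr1 in Ppm1g_R (0.67). Under 1.5-fold, Tgfbr2 was also higher in limma in Bub1b_R (0.52, adjusted p = 7.73e-06) and Ppp2r1b_R (0.56, adjusted p = 4.40e-06). Its change in Control_R was 0.17 (adjusted p = 0.169). The activin type II receptors Acvr2a and Acvr2b gave −0.22 to 0.20 and were called in no clone, nor were Smad2 (−0.12 to 0.34) and Smad3 (−0.18 to 0.23). Smurf1, a ubiquitin ligase that acts on SMADs and receptors, was the only listed gene called lower, in Bub1b_R (−0.63) and Ppm1g_R (−0.76, detected on 1 of 3 arrays without Dox).

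Fst encodes follistatin, which binds and neutralizes activin. It rose in the 4 clones other than Control_R. The change was 2.14 in Bub1b_R (adjusted p = 2.08e-12), 1.09 in Ppm1g_R (adjusted p = 2.95e-07) and 1.64 in Ppp2r1b_R (adjusted p = 4.25e-10), and on the arrays labelled Chek1_R, where Fst was not detected with Dox, it was at least 7.98-fold higher without (adjusted p = 9.25e-17). For such a lower bound the undetected group is given, array by array, the lowest signal detected on that array, or the probe's own if that is higher. In Control_R Fst gave 0.22 (adjusted p = 0.286). In Ppp2r1b_R Fst was detected on 1 of 3 arrays with Dox, so its change there starts near the detection limit.

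Target transcription factors of the pathway were called higher as well. Gsc, an organizer homeobox gene, was called on the arrays labelled Chek1_R (1.82) and in Bub1b_R (1.35). Mixl1, a primitive streak homeobox gene, rose by 3.24 in Bub1b_R (detected on 1 of 3 arrays with Dox), at least 3.67-fold on the arrays labelled Chek1_R and at least 3.42-fold in Ppm1g_R.

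Lhx1, a LIM homeobox gene of the anterior mesendoderm, was called in the same 3 clones, at least 5.45-fold, 3.37-fold and 1.21-fold higher. Eomes, a T-box gene upstream of mesoderm and endoderm, was at least 2.53-fold higher in Bub1b_R and 2.08-fold on the arrays labelled Chek1_R, and rose by 1.18 in Ppm1g_R (detected on 1 of 3 arrays with Dox). In Ppp2r1b_R and Control_R Mixl1, Lhx1 and Eomes were detected on 0 of 3 arrays with and without Dox, so no fold is given there, although Eomes counts among the 5 genes called in Ppp2r1b_R (adjusted p = 1.55e-04). Sox17, an endoderm regulator, was called in Bub1b_R, at least 1.49-fold higher.

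**Figure D4:**
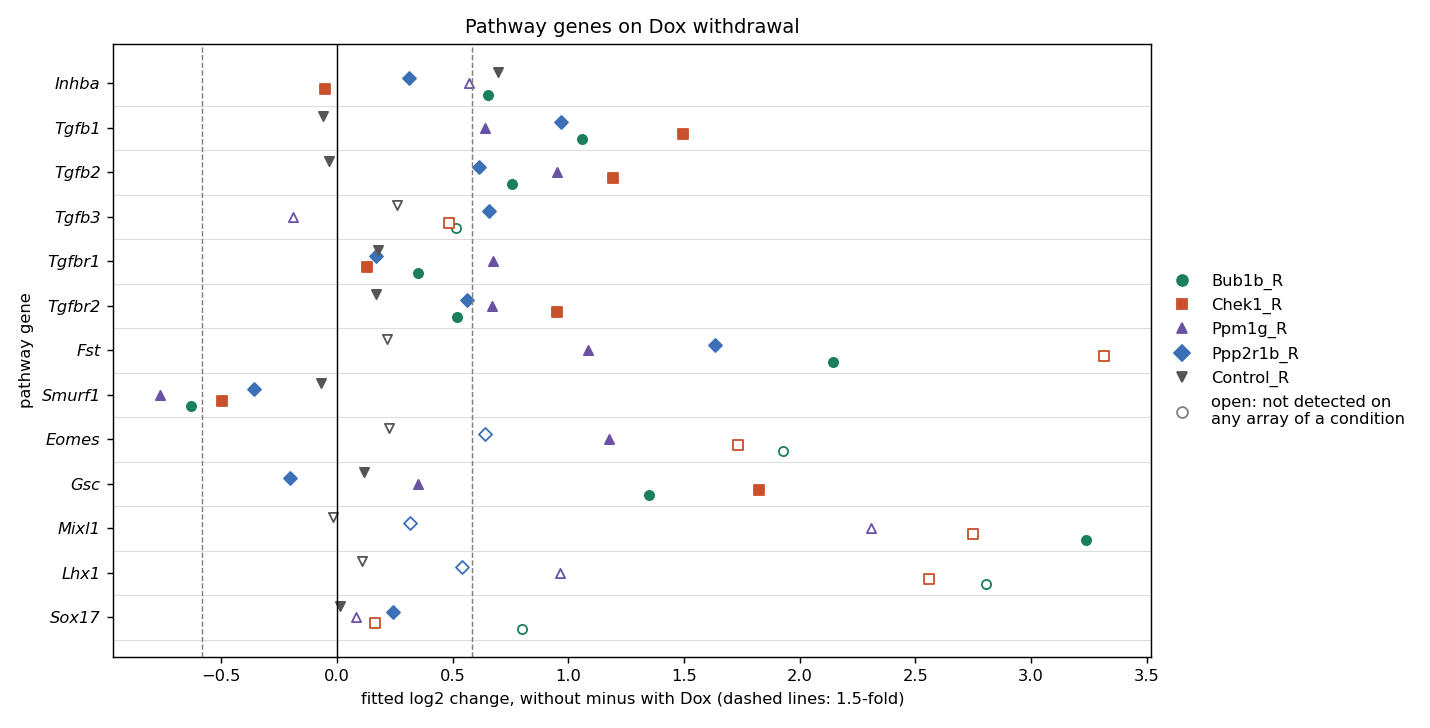
Fitted log2 change on Dox withdrawal of 13 pathway genes, each called in at least 1 clone, 1 symbol for each of 5 clones; dashed lines mark 1.5-fold, and open symbols mark a gene detected on no array of at least 1 of the conditions, where the fitted value is no bound. Tgfb1, Tgfb2 and Fst lie above the 1.5-fold line in the 4 clones other than Control_R and between −0.06 and 0.22 in Control_R.

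These changes are set beside those of cell type markers. Eomes, Gsc and Mixl1, and Sox17 among the endoderm markers, were read by the same probes in both lists. Their calls are thus counted in both and are no separate observation. Of 5 primitive streak markers (Eomes, Evx1, Gsc, Mixl1 and T), 5 were called higher on the arrays labelled Chek1_R, 5 in Bub1b_R, 4 in Ppm1g_R, 3 in Ppp2r1b_R and 1 in Control_R. Their summed normalized intensity went from 259 to 296 with Dox to 3107 to 3278 without on the arrays labelled Chek1_R, and in Control_R it lay at 267 to 323 with Dox and 318 to 330 without. In Bub1b_R the sum was 1084 to 1146 with Dox and 5273 to 5396 without, in Ppm1g_R 1041 to 1097 and 2247 to 2422, and in Ppp2r1b_R 450 to 467 and 1161 to 1320. Of the 8 ESC markers 1 was called lower on the arrays labelled Chek1_R, 2 in Bub1b_R, 4 in Ppp2r1b_R and 0 in the other clones. The summed intensity of the ESC markers was lower without Dox, with no overlap, in every clone. In Control_R it was 35413 to 36616 with Dox and 31512 to 32579 without. Of 8 fibroblast markers 3 to 5 were detected on no array of a clone, with Col1a2, Postn and Lum detected on none of the arrays. Called higher were 3 on the arrays labelled Chek1_R, 1 in Bub1b_R, 2 in Ppm1g_R, 3 in Ppp2r1b_R and 0 in Control_R, and 1 was called lower on the arrays labelled Chek1_R and 1 in Ppm1g_R. Their summed intensity was 703 to 714 with Dox and 733 to 834 without on the arrays labelled Chek1_R, and 685 to 733 and 863 to 1004 in Ppp2r1b_R. The sums overlapped in Bub1b_R (771 to 843 and 789 to 816), Ppm1g_R (587 to 612 and 599 to 629) and Control_R (805 to 839 and 829 to 833). Of 7 extraembryonic endoderm markers 3 were called higher in Bub1b_R and 0 in the other clones, and 1 lower on the arrays labelled Chek1_R. The part of these cells in the changes of the members was not tested, and in bulk RNA fewer cells of a type and less RNA per cell cannot be told apart.

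The genes whose means over the 10 conditions ran closest to Lefty2 were Notum (r = 0.972), Tcf12 (r = 0.965) and Fzd10 (r = 0.948), among 3876 genes with a range of at least 1 log2. With clone means taken off, r over the 30 arrays was 0.861, 0.857 and 0.900. For Tdgf1 they were Polr2g, Prpsap2 and Sec11c (r = 0.993, 0.989 and 0.988), and with clone means taken off r was 0.688, 0.678 and 0.632. For Nodal, Tesk1 (0.970), B3galnt2 (0.969) and D0H4S114 (0.964) came first, but with clone means taken off r was 0.201, 0.410 and −0.179. For Lefty1 they were Rasl10b, Igsf4a and Tmem154 (0.949, 0.942 and 0.924), for Gdf3 LOC676420 and Tek (0.896 and 0.866), for Foxh1 Shkbp1, Dusp28 and Gna12 (0.943, 0.943 and 0.932) and for Skil Mocos and Esco2 (0.829 and 0.823). With clone means taken off, r was 0.355, 0.762 and 0.338 for Lefty1 and 0.828 and 0.666 for Gdf3. For Foxh1 it was then 0.228, 0.244 and 0.114, and for Skil 0.506 and 0.619. The condition means share arrays, clones and Dox states, and these values are descriptions only.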

How the data were processed

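Total RNA from 30 samples was hybridized to Illumina mouse WG-8 v2 BeadChips. The authors deposited a background-corrected signal intensity for each of 25697 probes, before any normalization across arrays. Beside it stands a deposited detection p-value. The submitters' processing notes name lumi, with its role and version not given in the sources used here. In 2 deposited p-value columns 46 and 14 cells held spreadsheet dates; 28 and 6 were converted back, and 18 and 8 took the p of the probe nearest in intensity (0 on member probes).

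In R 4.3.3, limma 3.58.1 (neqc, offset 16, quantiles over 30 arrays) gave log2 values, and statmod 1.5.0 was loaded for the replicate block. Probes detected (detection p below 0.05) on 3 or more arrays, 15151 in all, entered 1 fit of 10 condition means with 20 residual and 3.38 prior degrees of freedom. Within each comparison p-values were corrected (Benjamini-Hochberg) over every tested probe, and a call needed an adjusted p under 0.05 and 1.5-fold. Neqc compresses the changes of dim probes. Array pairs take 1 array from each condition, 9 in all. No arrays held identical values (0 pairs), and replicates correlated at 0.990 to 0.997.

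Named are all probes of the 8 members, the targeted genes as a label check, list genes called in at least 1 clone (by their brightest probe) and, for each member, the 3 genes of highest Pearson r over the 10 means. A few genes that this rule takes are not reported here. Members and lists were chosen with earlier results of these data known. On simulated arrays of 15151 probes, 97.5% of 200 probes changed 2-fold were recovered for the change on the arrays labelled Chek1_R (6 false calls), and 96.5% for that in Bub1b_R (3 false calls). The simulated noise was independent and normal, and the recovery of changes under 2-fold, as most of the members' were, was not measured.

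The settings varied were the background correction (none, with intensities under 1 set to 1), median scaling, the offset (50), the detection filter (none, or p below 0.01 throughout a condition, 12372 probes), the arrays in the fit, a block for the replicate number, the fold limit (2-fold or none), the methods' per-probe test, quantiles by array set, the mean over a gene's probes, and each array left out in turn. Positions are RefSeq's on GRCm38.p6, and the shRNA sites come from the study's supplementary tables.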

Additional observations from a re-analysis of the deposited data

Results flagged for a closer look

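The change on Dox withdrawal differed between the 5 clones for 5 of the 8 member probes tested (F-test with Benjamini-Hochberg adjustment over 15151 probes in limma), beside 30.6% of all tested probes. Lefty2 stood first (F = 50.252), with changes from 0.24 in Ppp2r1b_R to 1.48 on the arrays labelled Chek1_R. Lefty1 followed (F = 23.353), falling by 0.56 on those arrays and rising by 0.21 in Ppm1g_R. Gdf3 (F = 15.486) changed by −0.59 to 0.03, Skil (F = 6.1149) by −0.34 to 0.12 and Tdgf1 (F = 5.3544) by −0.48 to 0.35, the highest value of each of the 3 being that of Control_R. With the arrays labelled Chek1_R left out, a choice made after the data had been seen, Lefty2 (F = 13.7), Lefty1 (F = 10.3) and Tdgf1 (F = 7.60) still passed, beside 20.8% of all tested probes.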

How the results depend on the processing

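Over the settings that leave no array out, 203 of 252 counts stayed within 1.5 times the reported count and 1159 of 1192 single-probe results kept direction and call, while 19 lost the call, 3 gained it and 11 turned sign. The changes of Lefty2 kept their direction throughout, at 0.79 to 0.95 in Bub1b_R, 1.42 to 1.60 on the arrays labelled Chek1_R, 0.26 to 0.41 in Ppm1g_R, 0.18 to 0.34 in Ppp2r1b_R and 0.32 to 0.38 in Control_R. The cause of the changes below was not tested, save that a fold limit moves counts by its own construction.

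Median scaling in place of quantiles shifted the median of all tested probes by 0.11 (Bub1b_R against Control_R without Dox) and by −0.14 (Ppp2r1b_R against Control_R, both without and with Dox), so differences there are to be read relative to these shifts. Under it Lefty2 passed in 2 of 5 clones, the F-test in 2 member probes, and the called member probes numbered 1 for the change on the arrays labelled Chek1_R, 0 and 1 for the changes relative to Control_R in Bub1b_R and on the arrays labelled Chek1_R, 2 for the latter arrays against Control_R without Dox and 1 for Bub1b_R against it with Dox. The values that turned sign under it were the changes of Nodal in Bub1b_R (0.0076) and Ppm1g_R (−0.069), of Lefty1 (0.047) and Skil (0.031) in Bub1b_R and of Foxh1 ILMN_2968632 in Control_R (0.026); relative to Control_R, Nodal (−0.040) and Lefty2 (−0.11) in Ppm1g_R and Nodal in Ppp2r1b_R (−0.0052); and with Dox against Control_R, Foxh1 ILMN_2968632 (0.089) and Skil (0.068) in Bub1b_R and Gdf3 in Ppp2r1b_R (−0.25).

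An offset of 50 left 1 member probe for the change on the arrays labelled Chek1_R and 1 for these arrays against Control_R with Dox, and 2 and 1 pathway genes in Ppp2r1b_R and Control_R. Quantiles by array set left 1 for the change on the arrays labelled Chek1_R. A limit of 2-fold left 0 and 1 for the changes in Bub1b_R and on the arrays labelled Chek1_R, 0, 1 and 0 relative to Control_R in Bub1b_R, those arrays and Ppm1g_R, 1, 0, 2 and 0 against Control_R without Dox in clone order, and 1 and 2 with Dox for the arrays labelled Chek1_R and Ppm1g_R; pathway genes were then 6, 3, 1 and 0 in Bub1b_R, Ppm1g_R, Ppp2r1b_R and Control_R. With no fold limit the changes gave 2, 4, 3, 3 and 1 member probes, those relative to Control_R 2 in Bub1b_R and 1 in Ppp2r1b_R, the comparisons without Dox 4, 8 and 8 in Bub1b_R, the arrays labelled Chek1_R and Ppp2r1b_R, and those with Dox 4, 7 and 7 in Bub1b_R, the arrays labelled Chek1_R and Ppm1g_R; pathway genes were 17 in Ppm1g_R, 13 in Ppp2r1b_R and 14 on the arrays labelled Chek1_R. When only the arrays compared were fitted, Lefty2 passed in 3 clones, not in Ppp2r1b_R or Control_R, and 1 pathway gene was called in Control_R. The methods' per-probe test called 5, 1 and 1 pathway genes in Ppm1g_R, Ppp2r1b_R and Control_R, and left Foxh1 ILMN_2659741 in Ppm1g_R against Control_R without Dox uncalled (adjusted p = 0.0707). The F-test without the arrays labelled Chek1_R, chosen after seeing the data, was passed by 3 member probes.

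With 1 array left out, called member probes ranged from 1 to 2 for the change on the arrays labelled Chek1_R, 0 to 2 in Ppm1g_R, 0 to 1 relative to Control_R in Bub1b_R and in Ppp2r1b_R, and 1 to 2 for the arrays labelled Chek1_R against Control_R without Dox. Of 1248 single-probe values 39 turned sign, none of them of a called result. Among the changes these were Foxh1 ILMN_2659741 in Ppm1g_R (−0.43 to 0.031), Foxh1 ILMN_2968632 on the arrays labelled Chek1_R (−0.083 to 0.37) and in Control_R (−0.13 to 0.15), Gdf3 in Control_R (−0.0075 to 0.061), Lefty1 in Bub1b_R (−0.066 to 0.0026), Nodal in Ppm1g_R (−0.053 to 0.085) and Ppp2r1b_R (−0.10 to 0.040), and Skil in Ppp2r1b_R (−0.095 to 0.027). Relative to Control_R they were Foxh1 ILMN_2659741 in Ppm1g_R (−0.29 to 0.17), Foxh1 ILMN_2968632 on the arrays labelled Chek1_R (−0.064 to 0.39), and Nodal in Bub1b_R (−0.061 to 0.070) and Ppp2r1b_R (−0.043 to 0.11). Against Control_R they were Foxh1 ILMN_2968632 in Bub1b_R with Dox (−0.11 to 0.043), Gdf3 (−0.020 to 0.0044) and Lefty1 (−0.060 to 0.034) in Ppm1g_R without Dox, and Skil in Ppp2r1b_R with Dox (−0.082 to 0.0018).

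The replicate block changed no call and no count (1, 2, 0, 0 and 0 member probes for the changes), with Lefty2 in Ppp2r1b_R at an adjusted p of 0.0147. Same-numbered arrays of a clone, with and without Dox, shared little deviation: 1 of 15 such pairs correlated over 0.1 (−0.084 to 0.13). In 6 of the 15 the highest r was with the array of the same number. With so few arrays per condition, low r cannot exclude that the numbers pair the samples. A chip block was not run, since no chip is given for each array. Smad7 and 1 Skil probe lay below the detection limit on all arrays. A change of Smad7 mRNA was therefore not detectable at this signal, and Skil mRNA was read by its other probe alone.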
